A study of Mus musculus with 4 samples.

Results

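The genes described here were 10 immediate-early genes, chosen by name: the orphan nuclear receptors Nr4a1, Nr4a2 and Nr4a3, the zinc-finger factors Egr1 and Egr2, the Krüppel-like factors Klf4 and Klf6, and Ier2, Dusp1 and Ifrd1. They made up 10 of the 23282 gene rows measured by QuantSeq, a sequencing method that reads the 3′ end of polyadenylated transcripts, in mouse gastrocnemius muscle. The study crossed high-intensity treadmill running (E), performed every other day, with a tumor burden (T) produced by tail vein injection of CT26, a mouse colorectal cancer line. All groups were male CDF1 mice on the same chow, with the age labelled as postnatal day 28. This label matches the age at purchase in the study text, where dissection came later, at the end of the experiment. The sampled muscle therefore came from mice older than the label states. Normal control mice (E-T-) received neither, normal exercise mice (E+T-) ran without cancer cells, cancer control mice (E-T+) received the cells and did not run, and cancer exercise mice (E+T+) received the cells and ran; values below are listed in this order of groups. There was 1 library for each of these 4 groups. The design names 10 mice per group, whereas the study text speaks of a representative mouse, so the number of animals behind a library is not settled here. The time between the last run and dissection is not given in the sources used here.

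Immediate-early genes are transcribed from factors already present in the cell, such as CREB, SRF and its ETS partners, and so need no new protein. They answer growth factors, calcium, cyclic AMP and stress, and their transcripts usually decay soon after the stimulus ends. In skeletal muscle, contraction and adrenergic signals are known inducers, and the NR4A receptors have been linked to the use of glucose and fatty acids.

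RefSeq promoter windows, 250 bases before to 50 bases after a transcription start, were at hand for 8 of the 10 genes. They were searched for letters by which signals are known to reach this class of gene. The core of the cyclic AMP response element (CRE), TGACG on either strand, was present in 20.8% of all 32851 windows, but 4 or more copies were present in 0.231% of them. Each of the 3 NR4A windows held 4 copies, and that of Dusp1 held 3, of which a pair overlaps in 1 full CRE, TGACGTCA, a sequence in 1.79% of windows. A CArG box, the binding sequence of SRF, was found in 1.63% of all windows and, among the genes with an entry, in Egr2, where it stood beside 2 CRE cores in the window of the third of 5 listed start sites. The windows of Klf4 and Ifrd1 held 1 core each, and that of Klf6 held none. Also sought were the EGR site GCGNGGGCG, the AP-1 site TGANTCA, the letters AAAGGTCA (NBRE) and the TATA box TATAAA. The EGR site, in 5.55% of all windows, was found in those of Nr4a1, Nr4a2, Klf4 and Ifrd1. The TATA box, in 13.6% of all windows, was found in that of Nr4a2. The AP-1 site and the NBRE were found in none. The cut of 4 copies equals the count in the NR4A windows, so the share of 0.231% is not a test of them. A match is a description of letters and not of binding. The 250 bases upstream of the start are shown for the genes with 2 or more cores. They are given 5′ to 3′ on the strand of the gene, with CRE cores and the CArG box in capitals. They lie at chr15:101266596-101266845 on the plus strand for Nr4a1, chr2:57124004-57124253 on the minus strand for Nr4a2, chr4:48045055-48045304 on the plus strand for Nr4a3, chr17:26508473-26508722 on the minus strand for Dusp1 and chr10:67537619-67537868 on the plus strand for Egr2, all in GRCm38, the assembly named mm10 in the labels.
Nr4a1: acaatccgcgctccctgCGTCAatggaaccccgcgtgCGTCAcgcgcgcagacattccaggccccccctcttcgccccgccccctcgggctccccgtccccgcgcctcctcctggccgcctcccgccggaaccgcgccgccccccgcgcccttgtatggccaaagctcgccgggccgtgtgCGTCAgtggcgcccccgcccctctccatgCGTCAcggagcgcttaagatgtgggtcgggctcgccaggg
Nr4a2: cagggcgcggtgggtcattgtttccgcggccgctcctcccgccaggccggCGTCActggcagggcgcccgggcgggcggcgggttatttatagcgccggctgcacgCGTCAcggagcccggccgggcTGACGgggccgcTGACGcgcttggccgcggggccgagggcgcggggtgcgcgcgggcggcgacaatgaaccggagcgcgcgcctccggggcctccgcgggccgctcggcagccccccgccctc
Nr4a3: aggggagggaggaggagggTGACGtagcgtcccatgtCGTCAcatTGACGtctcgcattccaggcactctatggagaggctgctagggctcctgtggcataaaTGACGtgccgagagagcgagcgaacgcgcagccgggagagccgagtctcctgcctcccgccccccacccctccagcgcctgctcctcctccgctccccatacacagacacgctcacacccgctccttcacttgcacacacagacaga
Dusp1: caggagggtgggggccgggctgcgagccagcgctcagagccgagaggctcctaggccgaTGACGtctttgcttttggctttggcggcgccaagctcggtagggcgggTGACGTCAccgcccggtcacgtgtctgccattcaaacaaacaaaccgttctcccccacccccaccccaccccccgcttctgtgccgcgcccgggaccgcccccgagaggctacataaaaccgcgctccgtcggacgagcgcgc
Egr2: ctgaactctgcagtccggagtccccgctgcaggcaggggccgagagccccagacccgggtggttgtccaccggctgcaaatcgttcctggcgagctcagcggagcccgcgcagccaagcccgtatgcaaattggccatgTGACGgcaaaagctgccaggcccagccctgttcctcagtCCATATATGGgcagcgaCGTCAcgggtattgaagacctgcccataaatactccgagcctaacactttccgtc

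Libraries held 10647456 to 13226074 reads, rebuilt as whole reads from the deposited values. The smallest share of reads that this depth can show, 3 reads of a library, was 2.27e-05% to 2.82e-05%. Markers of muscle fibres, among them Acta1 and Ckm, gave 833116 to 1351695 normalized reads per library, so the labelled tissue was present throughout. The libraries differed in markers of other cells. The sum of 9 neutrophil markers was 81.2 and 161 normalized reads without a tumor and 2691 and 1994 with one. The sum of 12 keratinocyte markers was 922 in cancer control and 113 to 269 in the others, and Krt5 and Flg2, with 20 and 148 reads in cancer control, had 0 reads elsewhere. Satellite cell markers summed to 1444, 894, 235 and 525 normalized reads, macrophage markers to 4467, 4393, 7715 and 7185, and red cell markers to 227819, 48314, 217130 and 458733. Fibroblast markers summed to 97387, 45952, 37831 and 38876, and 8 of 10 were lower with exercise alone, 8 with the tumor alone and 6 with the tumor in exercised mice, while 4 were higher with exercise in tumor-bearing mice. The part of these cells in any difference below was not tested, and in whole muscle fewer cells of a type and less RNA per cell cannot be told apart.

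With 1 library per group no difference has a replicate check in the sequencing data, and no p-value is given. Differences are taken between deposited values, which are on a log2 scale after 1 was added to the normalized read count. A gene is called higher or lower when this difference was at least 2-fold and at least 4 normalized reads were present in either library. The interval beside a difference is the 95% Clopper-Pearson interval of the read ratio, which covers counting error only. The 4 comparisons share libraries: normal control serves both comparisons made without the other factor, for example, so their values for a gene are not independent.

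**Figure D1:**
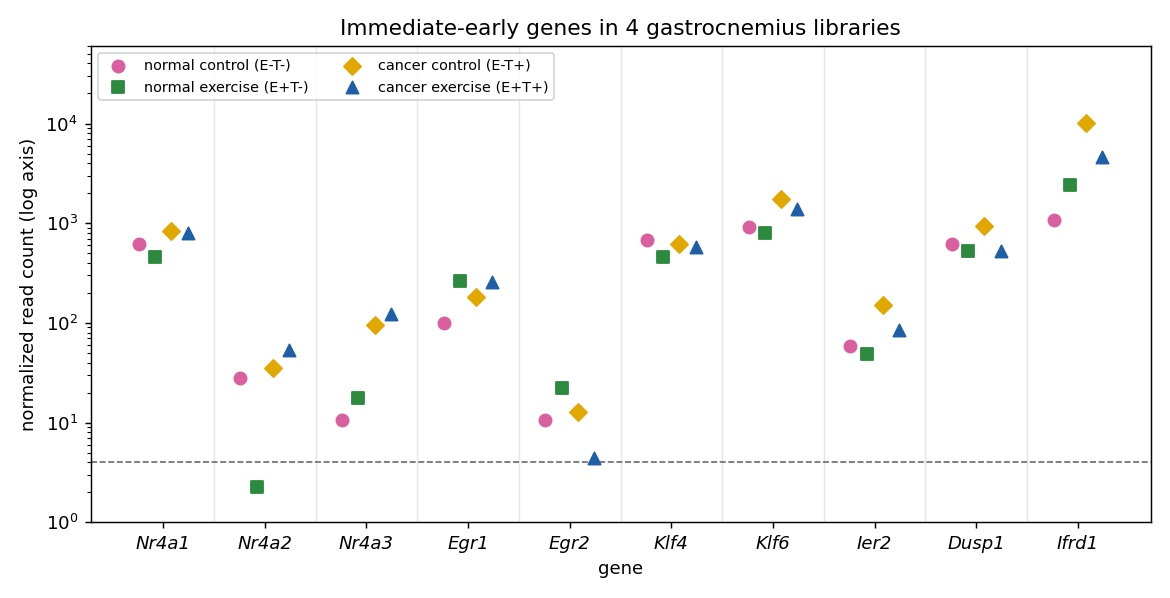
Normalized read count (log axis) of the 10 genes in the gastrocnemius libraries, 1 point per library, with the minimum of 4 normalized reads as a dashed line. Ifrd1 lies between 1070 and 10043, Nr4a2 falls under the line in normal exercise at 2.28, and the 4 points of Klf4 lie between 456 and 681.

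Among the NR4A receptors, Nr4a3 was past 2-fold higher with the tumor both without and with exercise. Nr4a1, Nr4a2 and Nr4a3 are ligand-independent nuclear receptors that bind DNA as monomers or dimers, so that their activity follows the amount of protein. Nr4a3 (chr4:48045078-48086447) had 10.7, 17.7, 96.3 and 124 normalized reads, from 10, 22, 90 and 115 reads. Both tumor libraries lay above both libraries without a tumor. The tumor difference was 3.06 on the log2 scale without exercise (interval 2.23 to 4.29) and 2.75 with exercise (2.14 to 3.53), and 4.24% and 3.49% of all genes tested reached these sizes in the same direction. The exercise differences of Nr4a3, 0.68 without and 0.37 with a tumor, had intervals of -0.39 to 1.99 and -0.04 to 0.78 and were not separable from counting error.

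Nr4a2 (chr2:57106830-57124003) showed another order, with a single low library. Its normalized counts were 27.7, 2.28, 35.3 and 53.0, from 26, 3, 33 and 49 reads. Normal exercise stood apart, and among the other 3 libraries no neighbours in the order could be separated by counting error. The ends of that order, cancer exercise and normal control with 49 and 26 reads, were not compared. Against normal control, normal exercise had a read ratio of -3.51 on the log2 scale (interval -5.88 to -1.80), and the gene was higher in cancer exercise than in normal exercise by 4.45 (2.82 to 6.77). On the scale of the deposited values, which pulls low counts together, these differences were -3.13 and 4.04, and 0.753% of all genes were at or above the latter. The remaining differences of Nr4a2, 0.34 for the tumor without exercise and 0.57 for exercise with the tumor, had intervals that span 0. Both large values rest on the 3 reads of one library.

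Nr4a1 (chr15:101253902-101274795), the most abundant of the 3 receptors in reads, was past 2-fold in no comparison. It had 623, 462, 838 and 798 normalized reads, a range of 1.81-fold, while the median range over the 15485 genes that met the minimum in at least 1 library was 2.57-fold. Cancer control and cancer exercise differed by less than counting error, and both were above normal control and normal exercise. The tumor difference was 0.43 (0.27 to 0.58) without and 0.79 (0.63 to 0.95) with exercise, and normal exercise was below normal control by a log2 difference of -0.43 (-0.60 to -0.26). The 3 receptors together had 662, 482, 970 and 975 normalized reads, of which Nr4a1 supplied 94.2%, 95.9%, 86.4% and 81.8%. The rest of this sum in the tumor libraries was mostly Nr4a3.

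The EGR factors bind GC-rich promoters and are known targets of SRF and of the ERK kinases. Egr1 (chr18:34861207-34864956) had 98.9, 263, 181 and 257 normalized reads, from 93 to 324 reads, and was lowest in normal control. Running without a tumor went with a 2.64-fold higher count, a log2 difference of 1.40 (1.07 to 1.76), and 6.16% of genes tested were raised by as much. Running with a tumor gave 0.50 (0.21 to 0.80), under the threshold. The levels of both exercise libraries could not be separated by counting error, so the tumor difference was 0.87 (0.50 to 1.25) without exercise and -0.03 (-0.28 to 0.21) with it.

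Egr2 (chr10:67534469-67542188), which is better known from nerve and immune cells, was scarce: 10.6, 22.1, 12.9 and 4.39 normalized reads, from 10, 27, 12 and 4 reads. No neighbours in this order differed beyond counting error. The comparison of the lowest with the highest library, cancer exercise against normal exercise, gave -2.10 and a read ratio of -2.34 (-4.31 to -0.82). The difference of -1.36 between cancer exercise and cancer control was past 2-fold, but its read ratio of -1.57 had an interval of -3.66 to 0.15. Without a tumor the exercise difference was 0.99 (-0.05 to 2.25), just short of 2-fold.

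The Krüppel-like factors Klf4 and Klf6, zinc-finger regulators of cell cycle exit and differentiation and, in Klf6, of the response to injury, were past 2-fold in no comparison. Klf4 (chr4:55527137-55532475) had the narrowest range of the 10 genes, 1.49-fold, with 681, 456, 616 and 578 normalized reads. The lowest library, normal exercise, was the one that lay apart from its neighbour beyond counting error, and it differed from normal control by -0.58 (-0.75 to -0.41). Cancer control and normal control differed by -0.14 (-0.31 to 0.02), which is within counting error. Klf6 (chr13:5861489-5870393) had 909, 789, 1750 and 1399 normalized reads, and each step of this order exceeded counting error. Its tumor difference was 0.94 (0.83 to 1.07) without and 0.83 (0.71 to 0.95) with exercise, the first just short of 2-fold, and its exercise differences were -0.20 (-0.34 to -0.07) and -0.32 (-0.43 to -0.22).

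Ier2 and Dusp1 were highest in cancer control. Ier2 (chr8:84661331-84662852) encodes a short-lived nuclear protein. It had 58.5, 48.5, 151 and 85.6 normalized reads, and the tumor difference without exercise was 1.35 (0.91 to 1.84), a size that 14.7% of genes reached. In exercised mice it was 0.81 (0.31 to 1.32), and cancer exercise lay -0.81 (-1.24 to -0.41) from cancer control. Dusp1 (chr17:26505591-26508472) encodes the phosphatase that inactivates the MAP kinases p38, JNK and ERK. Its normalized counts were 624, 527, 928 and 529. Both exercise libraries were alike within counting error (0.00, -0.17 to 0.18), and cancer control stood above them and above normal control by 0.57 (0.42 to 0.72). Exercise with a tumor gave -0.81 (-0.97 to -0.65), which is less than 2-fold.

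Ifrd1 (chr12:40203129-40223189), also called Tis7, encodes a transcriptional co-regulator known from muscle regeneration. It was the most abundant of the 10 genes in each library and the only one in which all 4 libraries differed from their neighbours by 0.9 or more on the log2 scale. It had 1070, 2401, 10043 and 4560 normalized reads and supplied 26.0%, 48.1%, 68.5% and 54.4% of the normalized reads of the 10 genes. The gene was higher with exercise in the absence of a tumor by 1.17 (1.06 to 1.27), higher with the tumor in unexercised mice by 3.23 (3.14 to 3.33), and lower with exercise in the presence of the tumor by a difference of -1.14 (-1.19 to -1.09). With exercise, the tumor difference was 0.92 (0.86 to 0.99). Ifrd1 is among the candidate genes that the study selected on these samples for 2-fold changes, so its being past 2-fold in 3 comparisons is not independent evidence. The study also reports RT-qPCR in littermates for Ifrd1 and states that its changes matched the sequencing. Those measurements were not used here. The annotated antisense gene that overlaps it, Gm7008, had 0 reads in each library.

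**Figure D2:**
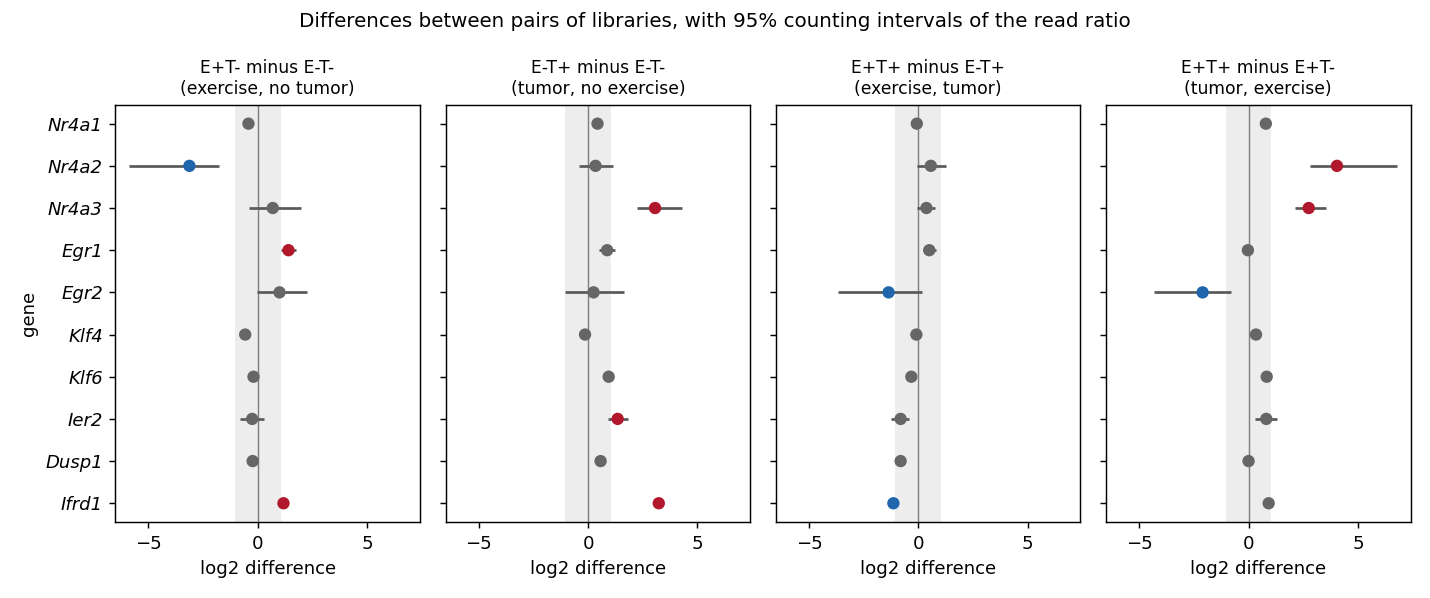
Log2 difference of the deposited values for each gene in the 4 comparisons (points, red for at least 2-fold higher, blue for at least 2-fold lower, grey otherwise), with the 95% counting interval of the read ratio as a line and the region under 2-fold shaded. Nr4a3 is red in both tumor comparisons, at 3.06 and 2.75, and Ifrd1 lies at 1.17 with exercise alone and at -1.14 with exercise in tumor-bearing mice.

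All 10 genes met the minimum in each comparison. Exercise without a tumor left 2 of them higher (Egr1 and Ifrd1) and 1 lower (Nr4a2), where 9.44% of the 14518 genes tested were higher and 12.1% lower, and the median difference was -0.22 against -0.01 over all genes. The tumor without exercise left 3 higher (Nr4a3, Ier2 and Ifrd1) and 0 lower, beside 20.9% and 24.2% of 14818 genes. Above 0 lay 9 of 10 differences, beside 48.6% of all genes, with a median of 0.72 against -0.04. Those of Nr4a2 and Egr2 had intervals that span 0. A further 4 genes, Nr4a1, Egr1, Klf6 and Dusp1, lay above 0 by more than counting error without reaching 2-fold. The share of all genes that did so was not computed. Exercise with a tumor left 0 higher and 2 lower (Egr2 and Ifrd1), beside 15.6% and 15.1% of 14491 genes, with a median of -0.21 against 0.01. The tumor with exercise left 2 higher (Nr4a2 and Nr4a3) and 1 lower (Egr2), beside 13.9% and 16.3% of 14470 genes, with a median of 0.80 against -0.03. Each gene is 10% of the 10, so these counts are not read as differing from the background shares. Over all 40 values there were 11 calls, spread over 6 genes. Of the 30 pairs of libraries next to each other in the order of a gene, 17 differed by more than counting error. Normal exercise was the lowest library for 6 of the 10 genes, and cancer control the highest for 5. Some of these places are within counting error, the lowest of Ier2 and Dusp1 and the highest of Nr4a1. The same counts of order were not made over all genes, so they are not read as a trait of the 10.

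The exercise difference itself was then compared between mice with and without a tumor, 2 comparisons that share no library. With minus without, it was 3.70 for Nr4a2, where 2.99% of all genes were as high, -2.30 for Ifrd1, where 8.01% were as low, and -2.35 for Egr2, where 7.56% were as low. Ifrd1 was the only gene of the 10 in which both exercise differences exceeded counting error in opposite directions. The other 7 values lay between -0.90 for Egr1 and 0.49 for Klf4. None of these has a test, since each is a difference of 4 single libraries.

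**Figure D3:**
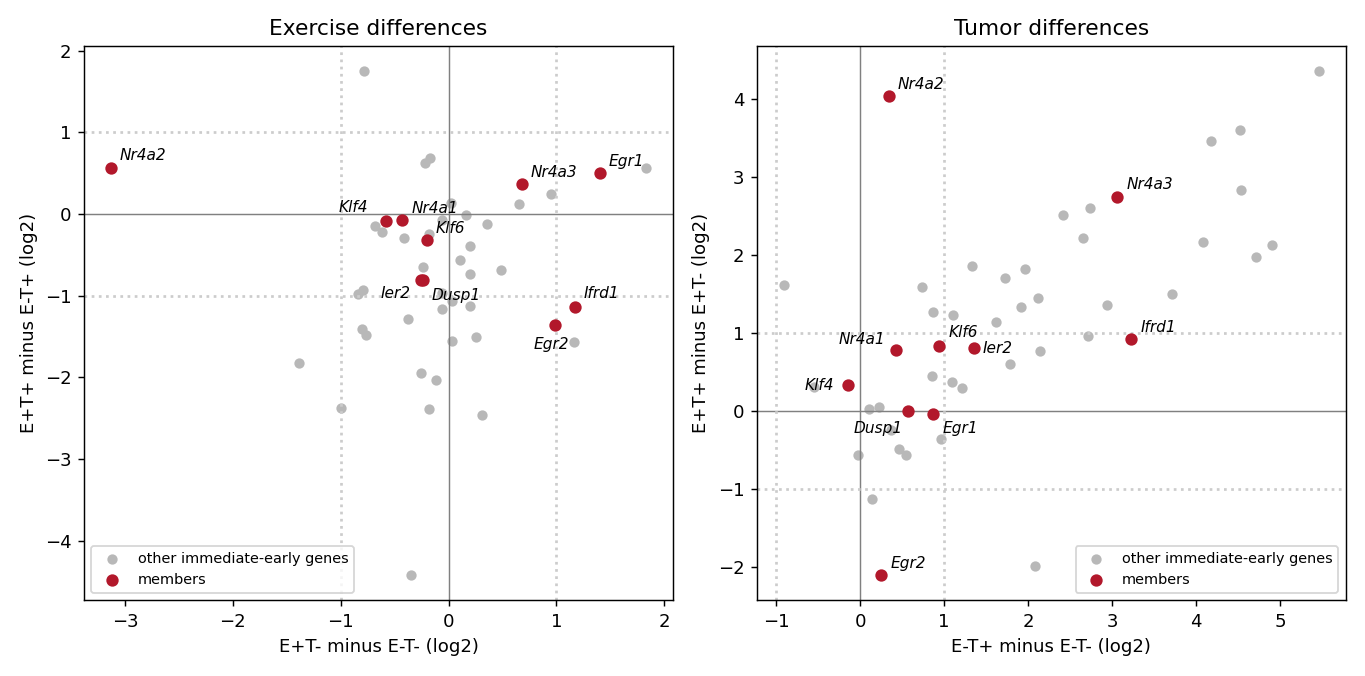
Left, exercise differences without a tumor (horizontal) and with it (vertical); right, tumor differences without exercise (horizontal) and with it (vertical), in log2 units, for the 10 genes (red) and the other immediate-early genes with at least 4 normalized reads in a library (grey). Dotted lines mark 2-fold; Nr4a2 lies at -3.13 and 0.57 on the left, and Nr4a3 at 3.06 and 2.75 on the right.

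The distance between the log2 profiles of the genes was taken over the 4 libraries, each profile centred on its own mean. Profiles were not scaled, so genes with a narrow range lie close whatever the order of their libraries. The closest pair was Nr4a1 and Klf6 at 0.37, followed by Ier2 and Klf6 at 0.40. Klf4 was nearest to Nr4a1 (0.52), Dusp1 to Klf4 (0.59), Egr1 to Klf6 (1.36) and Nr4a3 to Ifrd1 (1.39). A near gene need not share the order: Egr1 had its highest count in normal exercise, the lowest library of Klf6. Nr4a2 was the most isolated, with Ier2 nearest at 2.51, and its profile rests on the 3 reads of normal exercise. By this distance each NR4A receptor had its nearest gene outside its own family.

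A list of 40 other immediate-early genes gives the setting. It was chosen with earlier results of these data known, so its shares are not independent of them. Arc and Egr4 had no reads in any library. With the tumor alone, 25 of 38 that met the minimum were higher (65.8%, beside 20.9% of all genes) and 0 lower. The median difference was 1.75. The AP-1 subunit Junb went from 117 reads without to 3495 with the tumor (4.90), the AP-1 partner Maff 35 and 937 (4.71), the antiproliferative Btg2 115 and 2672 (4.54) and the nuclear protein Csrnp1 11 and 272 (4.52). Fosl1, another AP-1 subunit, had 0 and 42 reads and was at least 14.1-fold higher. In exercised mice the tumor left 22 of 37 higher (59.5%, beside 13.9% of all genes) and 1 lower, with a median of 1.33. Of 6 keratinocyte markers that met the minimum in this comparison, 1 was higher and 3 lower, and of 12 with the tumor alone 9 were higher. Some of these 12, such as Krt5 and Flg2, met the minimum only through cancer control, so they could not have been called lower. In exercised mice with the tumor, Fosl1 was at least 8.02-fold higher, Csrnp1 stood at 3.62, Myc at 3.47, Btg2 at 2.85 and the stress factor Atf3 at 2.61. Neutrophil markers were higher with the tumor in both comparisons, 7 of 8 and 6 of 7 that met the minimum. Some of them, such as Retnlg and Mmp8, had fewer than 4 normalized reads in both libraries without a tumor. These met the minimum only through a tumor library, so they could not have been called lower.

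With exercise alone, 2 of 36 genes of this list were higher and 2 lower, beside 9.44% and 12.1% of all genes. The median was -0.15, and 0.01 under total read count scaling. The kinase Plk3 had 9 and 45 reads (1.83) and Maff 35 and 105 (1.17), whereas Fos had 19 and 9 (-1.39) and Gadd45g, a stress sensor, 468 and 306, just past 2-fold. In tumor-bearing mice, 16 of 38 were lower with exercise (42.1%, beside 15.1% of all genes) and 1 higher, with a median of -0.84. Junb went from 3495 reads without to 629 with exercise (-2.46), the kinase Sik1 596 and 112 (-2.39), Gadd45g 2043 and 390 (-2.37) and Ppp1r15a, a phosphatase subunit of the stress response, 2049 and 494 (-2.03). Fosb had 20 and 0 reads, at least 6.59-fold lower. Jun alone was higher, with 617 and 2060 reads. Of 12 keratinocyte markers, 11 were lower with exercise in this comparison. Some of them, such as Krt5 and Flg2, met the minimum only through cancer control, so they could not have been called higher. Fos and Maff are among the candidate genes that the study selected on these samples, as Ifrd1 is, so their values are not independent evidence. The RT-qPCR in littermates that the study reports covers both of them too.

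**Figure D4:**
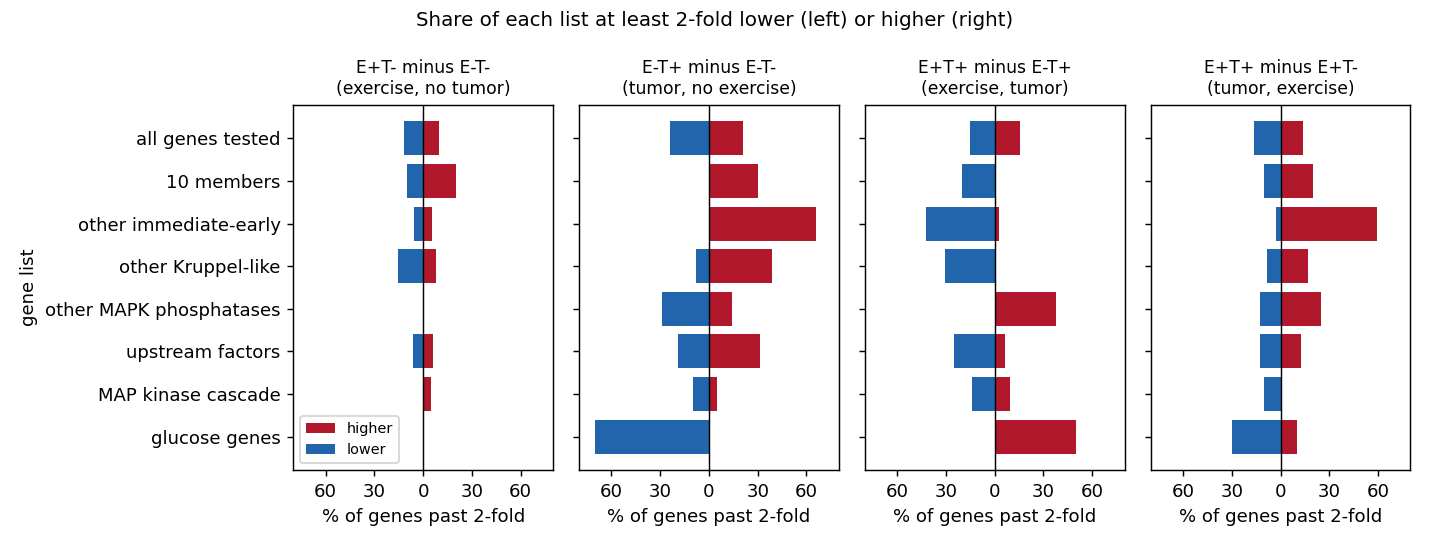
Percent of genes at least 2-fold higher (red, right) or lower (blue, left) among all genes tested, the 10 genes described and 6 gene lists, in the 4 comparisons. The other immediate-early genes reach 65.8% higher with the tumor alone, against 20.9% of all genes, and 42.1% lower with exercise in tumor-bearing mice, against 15.1%. The lists were chosen with earlier results of these data known.

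Other families related to the 10 genes were read the same way. Of the other Krüppel-like factors, 13, 13, 13 and 12 met the minimum in exercise without a tumor, tumor without exercise, exercise with a tumor and tumor with exercise, the order of comparisons used below. There 1, 5, 0 and 2 were higher and 2, 1, 4 and 1 lower. Over all genes tested, 9.44%, 20.9%, 15.6% and 13.9% were higher and 12.1%, 24.2%, 15.1% and 16.3% lower. Several counts of these short lists, here and below, lie near or under those shares. Klf15, a regulator of amino acid use in muscle that responds to glucocorticoids, had 176, 52, 1244 and 541 reads, with differences of -2.13, 2.82, -1.18 and 3.77. Klf10 was higher with exercise alone (1.03) and with the tumor alone (1.40), and Klf9 with the tumor in both settings (1.30 and 1.47). Klf5, which epidermis also expresses, stood at 1.65 with the tumor alone and -1.66 with exercise in tumor-bearing mice. Klf14 was read 40 times in cancer control and never in the rest.

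The other MAP kinase phosphatases, relatives of Dusp1, did not share its order. Of 6, 7, 8 and 8 genes that met the minimum, 0, 1, 3 and 2 were higher and 0, 2, 0 and 1 lower, and Dusp5 had no reads. Dusp10, which acts on p38 and JNK, had 189, 185, 24 and 64 reads and was lower with the tumor alone (-2.92), higher with exercise on top of it (1.39) and lower with the tumor in exercised mice (-1.10). Dusp2 had 23, 26, 3 and 33 reads. In the MAP kinase cascade, 1, 1, 2 and 0 of 20, 20, 21 and 20 genes were higher and 0, 2, 3 and 2 lower. The gene of p38α, Mapk14, was lower with the tumor alone (-1.42) and higher with exercise in tumor-bearing mice (1.09).

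Among 16 factors known to act upstream of immediate-early genes, 1, 5, 1 and 2 were higher and 1, 3, 4 and 2 lower. Srf had 1070, 1309, 727 and 801 reads and Creb1 570, 669, 267 and 414. Mef2c, a muscle factor under the control of calcium, had 16157, 11143, 2102 and 4941 normalized reads, and differed by -2.94 with the tumor alone and 1.23 with exercise in tumor-bearing mice. Mef2d had the opposite pattern (2.49 and -1.33), as had the CREB coactivator Crtc3 (1.22 and -1.68). Of 6 partners and corepressors of the NR4A and EGR factors, the only one past 2-fold was Rxrg. It is 1 of the retinoid X receptors, a family with which Nr4a1 and Nr4a2 form heterodimers. Of the same family, Rxra had 819, 1558, 1361 and 812 reads and Rxrb 388, 301, 427 and 321. Rxrg had 815, 1713, 39 and 338 reads, and stood at -4.34 with the tumor alone, 3.10 with exercise in tumor-bearing mice and -1.92 with the tumor in exercised mice.

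The last list held 10 genes of glucose and glycogen use that have been linked to NR4A receptors in muscle. None was past 2-fold with exercise alone. With the tumor alone 7 of 10 were lower and 0 higher, with a median of -2.50, while Nr4a3 was higher and Nr4a1 was not past 2-fold. Pgam2, the muscle phosphoglycerate mutase, stood at -2.91, the muscle enolase Eno3 at -2.72, and the phosphorylase kinase subunits Phkg1 and Phka1 at -2.92 and -2.90. With exercise in tumor-bearing mice 5 were higher and 0 lower, with a median of 1.04, among them Pgam2 (1.76), the muscle fructose bisphosphatase Fbp2 (1.73) and Eno3 (1.52). In exercised mice the tumor left 1 higher and 3 lower. Of all genes tested, 24.2% were lower with the tumor alone and 15.6% higher with exercise in tumor-bearing mice. Of 10 muscle fibre markers, 1 was higher and 4 lower with the tumor alone, and 2 were higher and 1 lower with the tumor in exercised mice.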

How the data were processed

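QuantSeq 3′ mRNA libraries of gastrocnemius muscle, 1 per group, were analysed. The authors aligned reads with Bowtie2 (build mm10, per the labels), used bedtools coverage for counting and edgeR for quantile normalization; versions, annotation and the use of strand are not given in the sources used here. The deposited unit is log2 of a normalized read count to which 1 was added, which understates changes of low genes. A negative binomial quantile adjustment with 1 dispersion (0.339) and a size per library was fitted to them (R 4.3.3), tested on simulated data, and reproduced 100% of the values from whole reads within 0.0006. For the most abundant genes reads are approximate (Ifrd1 in cancer control, 9378, where counts over a span of 6 reads give the same printed value).

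The groups came from the sample labels. The 10 genes and the lists were chosen with earlier results of these data known. All 10 are named, together with up to 5 genes per list and comparison, those past 2-fold with the largest differences and at least 16 normalized reads, and the nearest gene of each by profile. Others, such as Jun, Srf and Creb1, were named after their values were seen. Other scalings, another pseudocount (0.5 or 4), another minimum (0 or 16) and a 4-fold threshold were also tried. Promoters and positions are from RefSeq (GRCm38.p6); motifs were searched on both strands. Intervals and floors cover counting error only, since no molecular identifiers are stated. Python 3.11.15 and SciPy 1.17.1 were used.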

Additional observations from a re-analysis of the deposited data

Results flagged for a closer look

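The exercise difference of Ifrd1 had opposite directions in the 2 settings. It was 1.17 on the log2 scale in mice without a tumor and -1.14 in mice with a tumor, each from 1 library against 1, so that the difference between the settings was -2.30. The counting intervals of both exclude 0, but the difference was not tested, because there are no replicate libraries. Ifrd1 was one of the candidate genes that the study selected on these samples, so the pattern is not independent of that choice. The RT-qPCR in littermates that the study reports for Ifrd1 was not used here.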

How the results depend on the processing

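No gene of the 10 that was past 2-fold changed direction under the settings tried. Of the counts of the 10 genes past 2-fold, 29 of 32 recomputed values stayed within 1.5 times the main count. The 3 others had 1 gene for exercise without a tumor at a 4-fold threshold, and, for exercise with a tumor, 0 at that threshold and 1 with a minimum of 16 normalized reads. Of the scalings tried, the trimmed mean of M values matched the deposited library sizes within 0.008%, so it could hardly move any value. Lifting the minimum could not change the counts of the 10 genes, which all met it. At 4-fold the other immediate-early genes counted 0 for exercise without and 5 with a tumor, and 16 for the tumor without and 9 with exercise. Egr2 reached 2-fold with exercise alone under total read count scaling (1.13) and a pseudocount of 0.5 (1.02), and Klf6 with the tumor alone under total read count scaling (1.02). That scaling moved the median of all genes by 0.16 in exercise without a tumor and by -0.15 in the tumor with exercise. It turned the balance of all genes from 9.44% higher and 12.1% lower to 11.6% and 10.3% for exercise without a tumor, and from 15.6% and 15.1% to 14.3% and 16.2% for exercise with a tumor. Median of ratios scaling also turned the latter, to 15.0% and 15.7%. The all-gene medians of exercise without a tumor, tumor without exercise and exercise with a tumor became 0.15, 0.03 and -0.06 under total read count scaling, and the Dusp1 difference of 0.00 for the tumor with exercise became -0.15. Differences in the report follow the deposited scaling. Of 200 recomputed differences of the genes 5 moved by more than the mean arm of their counting interval, all of Klf6 or Ifrd1 under total read count scaling. Of 50 recomputed differences of the exercise effects 3 moved by more than the combined arms of both intervals, all under that scaling, Ifrd1 to -2.53, Klf6 to -0.35 and Nr4a1 to 0.13. The marker lists were recomputed under the same settings after the data were seen, and 246 of 288 counts stayed within 1.5 times the main count. Leaving out a library was not possible, and no paired analysis was possible because each group had 1 library. Depth limits Egr2 and Nr4a2 most, with 4 and 3 reads in their lowest libraries.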
